A study of Mus musculus with 6 samples.

Results

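The genes described here code for the enzymes that cut the extracellular matrix and for the tissue inhibitors that block them. They are the protein-coding matrix metalloproteases (Mmp genes), tissue inhibitors of metalloproteases (Timp genes), ADAMTS proteases (Adamts genes) and ADAMTS-like proteins (Adamtsl genes), picked by symbol in the GENCODE M21 annotation of the mouse build GRCm38. The count table held 47 of them among 18951 genes: 20 Mmp, 4 Timp, 18 Adamts and 5 Adamtsl genes. Another 3 genes whose symbols match, Adamts13, Mmp20 and Mmp21, were not analysed here. The rule uses symbols and no measured value, though the set was proposed with earlier results of these data known.

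The study asked how gene expression in primary mouse heart cells changes when Rbm22, a splicing factor gene, is silenced. Of 6 RNA-seq libraries, 3 are labelled si-Rbm22 (siRNA against Rbm22) and 3 si-Control (scrambled siRNA). Per the labels, all 6 share the rest of the design. The cells came from hearts of C57BL/6 mice at postnatal day 1 (C57BL/6J in the protocol), were isolated with a dissociation kit, cultured in medium with fetal serum, and harvested 48 h after transfection. The labels name the cells cardiomyocytes and state that the cultures used were more than 97.5% positive for cardiac troponin T. They name no genetic modification and do not say whether each replicate came from its own isolation.

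Matrix metalloproteases are zinc enzymes that are made as inactive precursors, and between them they cleave collagens, gelatin, elastin and proteoglycans. TIMP proteins bind the active site of the mature enzymes and block it. In the heart, the enzymes and their inhibitors take part in remodelling of the matrix after injury, and fibroblasts, macrophages and muscle cells all make some of them. ADAMTS proteases are secreted enzymes with thrombospondin repeats, of which some cut large proteoglycans such as versican and others trim procollagens, while ADAMTS-like proteins have the repeats without the protease domain and bind microfibrils.

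Levels are given as CPM, counts per 1000000 reads of a library total scaled with edgeR's TMM method, or, to compare genes of different length, as FPKM, the CPM divided by the kilobases of the gene's exons. Changes are log2 fold changes of si-Rbm22 over si-Control with a standard error (SE). Genes were compared with edgeR's quasi-likelihood test, its adjusted p is corrected over all tested genes after Benjamini and Hochberg, and a gene passed at an adjusted p under 0.05. Library totals lay between 36860678 and 37344860 reads in si-Rbm22 and between 34269042 and 35955301 reads in si-Control. Rbm22 itself had 14.6, 12.9 and 13.1 CPM in the si-Rbm22 libraries, against 22, 25.2 and 22.3 CPM in the si-Control libraries (log2 fold change -0.78, SE 0.0973, adjusted p = 4.22e-06).

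The contents of the si-Control libraries did not match the cell label that all 6 libraries share. All 10 cardiomyocyte markers were higher in si-Rbm22, with summed levels of 25460 to 39610 CPM in si-Rbm22, against 47 to 54.4 CPM in si-Control, where Myl2, Myl3, Mybpc3, Nppa and Pln had no read. The 9 tested markers of skeletal muscle precursors were all lower in si-Rbm22 (365.3 to 525.4 CPM summed, against 1217 to 1288 CPM in si-Control), and Myod1, Myf5, Cdh15 and Cacng1 had no read in si-Rbm22. Des, which heart muscle also expresses, made up nearly all of that sum in si-Rbm22. Without it the other 9 listed markers summed to 0.24 to 0.556 CPM in si-Rbm22, against 616.7 to 632.5 CPM in si-Control. Summed fibroblast markers lay at 5698 to 5897 CPM in si-Rbm22, against 21415 to 23250 CPM in si-Control, with 3 of 10 higher (Dcn, Thy1 and Tcf21), 5 lower and 2 not past the test, and Tcf21 had no read in si-Control. Col1a1, Col1a2 and Col3a1 carried the sum, with 4973 to 4992 CPM in si-Rbm22 and 20299 to 22197 CPM in si-Control. Smooth muscle and pericyte markers were mixed too, with 6 of 10 higher and 4 lower in si-Rbm22. They summed to 2348 to 2890 CPM in si-Rbm22, against 3185 to 3238 CPM in si-Control. All 10 endothelial markers (311.5 to 361.7 CPM summed in si-Rbm22, 1.71 to 2.18 CPM in si-Control), all 10 mesothelial and epicardial markers (2586 to 2835 CPM, against 99.1 to 103.0 CPM) and all 10 macrophage markers (125.0 to 163.2 CPM, against 5.79 to 7.58 CPM) were higher in si-Rbm22, and the macrophage markers Adgre1 and Tyrobp had no read in si-Control. Because all 3 si-Control libraries stand apart in this way, no result could be computed without them, and the effect of the siRNA and the make-up of the cultures cannot be told apart. The names si-Rbm22 and si-Control below stand for the labels. In such bulk samples, fewer cells of a type and less RNA per cell cannot be told apart.

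Of the 47 genes, 42 passed the filter on low counts and were tested, and 41 of these passed, 21 higher and 20 lower in si-Rbm22. The share that passed was 97.6%, against 82% of all 14621 tested genes (43.1% higher and 38.9% lower). At least 2-fold changes that passed the test were found for 32 of the 42 genes (17 higher and 15 lower), which is 76.2%, against 43.1% of all tested genes. The median size of the log2 fold change was 2.75 for the 42 genes and 0.82 for all tested genes, while the median signed value was 0.01 for the 42 genes and 0.05 for all tested genes. The values of the 3 libraries of each group did not overlap for 41 of the 42 genes, against 84.2% of all tested genes. The exception was Adamts17. The 5 genes under the filter on low counts were Adamts18, Mmp13, Mmp1b, Mmp7 and Timp4. The genes thus moved in both directions within every family, and the paragraphs below take them by role.

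**Figure D1:**
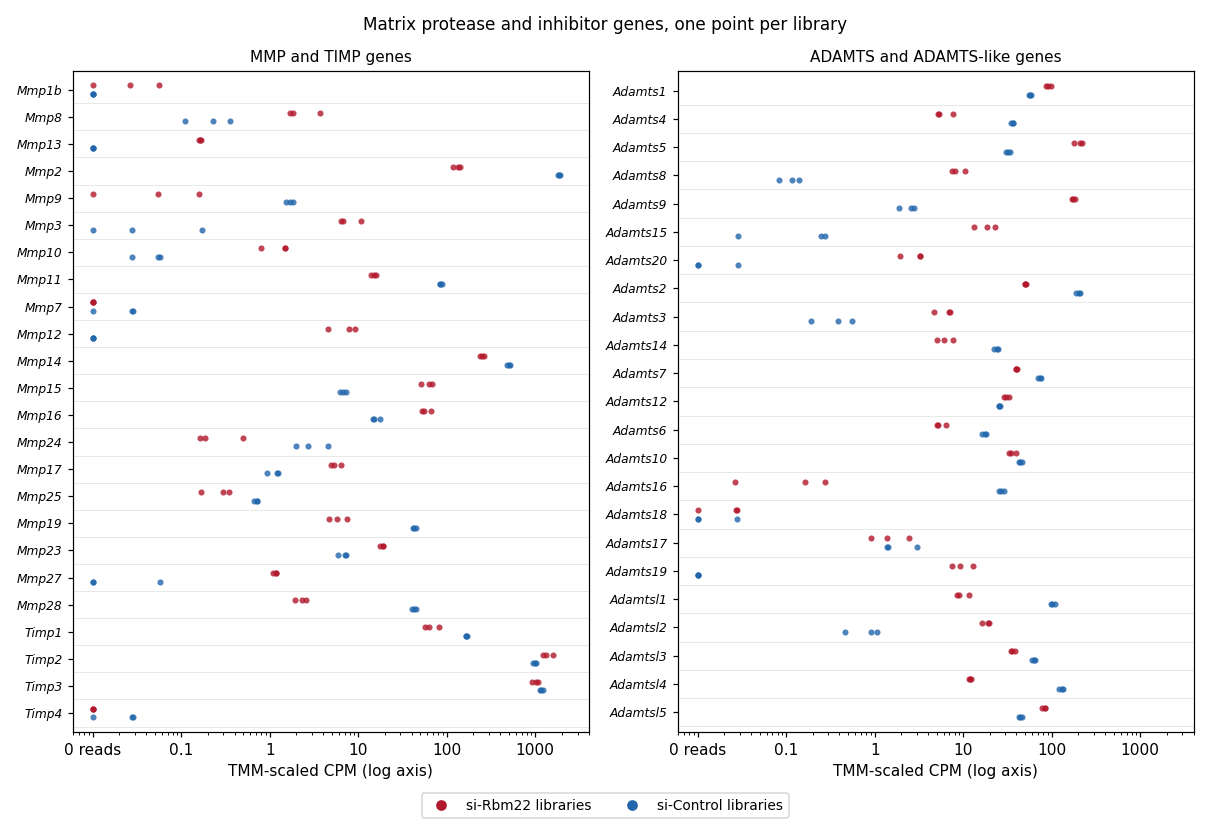
TMM-scaled CPM (log axis, libraries without a read at the left edge) of the 47 genes, with 1 point per library, si-Rbm22 above si-Control in each row. The points of the groups lie apart for most genes, with Mmp2 at 117.4 to 140.9 CPM in si-Rbm22 and 1795 to 1880 CPM in si-Control, while those of Adamts17 overlap.

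Summed over each family, the metalloproteases were lower in si-Rbm22, while the sums of their inhibitors overlapped between the groups. The 20 Mmp genes summed to 115.6, 129.2 and 125.0 FPKM in the si-Rbm22 libraries, against 705.7, 702.0 and 672.8 FPKM in the si-Control libraries. The 4 Timp genes summed to 513.1, 506.2 and 626.6 FPKM in si-Rbm22, against 588.5, 591.7 and 574.0 FPKM in si-Control. The Mmp sums thus lay far apart, and the Timp sums overlapped, with si-Rbm22 replicate 3 above every si-Control library. The ratio of summed Timp to summed Mmp FPKM was 4.44, 3.92 and 5.01 in si-Rbm22 (4.46 ± 0.547, SD, n = 3), against 0.834, 0.843 and 0.853 in si-Control (0.843 ± 0.00953, SD, n = 3). Inhibitor transcripts outnumbered metalloprotease transcripts per length in every si-Rbm22 library and in no si-Control library. The Mmp sum and the ratio rest largely on Mmp2, which held 79.1% of the Mmp FPKM in si-Control and 31.4% in si-Rbm22. They do not describe a shift of the whole family, whose other genes moved in both directions. The 18 Adamts genes summed to 71.7, 79 and 76.4 FPKM in si-Rbm22 and to 74.7, 74.6 and 70.5 FPKM in si-Control. These sums overlapped although 16 of the 17 tested Adamts genes passed the test (94.1%, against 82% of all tested genes). The 5 Adamtsl genes summed to 26.9, 28.8 and 28 FPKM in si-Rbm22 and to 57.5, 57.6 and 53.1 FPKM in si-Control, without overlap. As a share of all reads, the 47 genes made up 0.382% ± 0.0366 in si-Rbm22 and 0.582% ± 0.0128 in si-Control (SD, n = 3 each). The counts of genes were the same in both groups at a low bar, since 25 genes reached 1 FPKM in every library of si-Rbm22 and 25 in every library of si-Control. At 10 FPKM there were 9 genes in si-Rbm22 and 12 in si-Control.

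**Figure D2:**
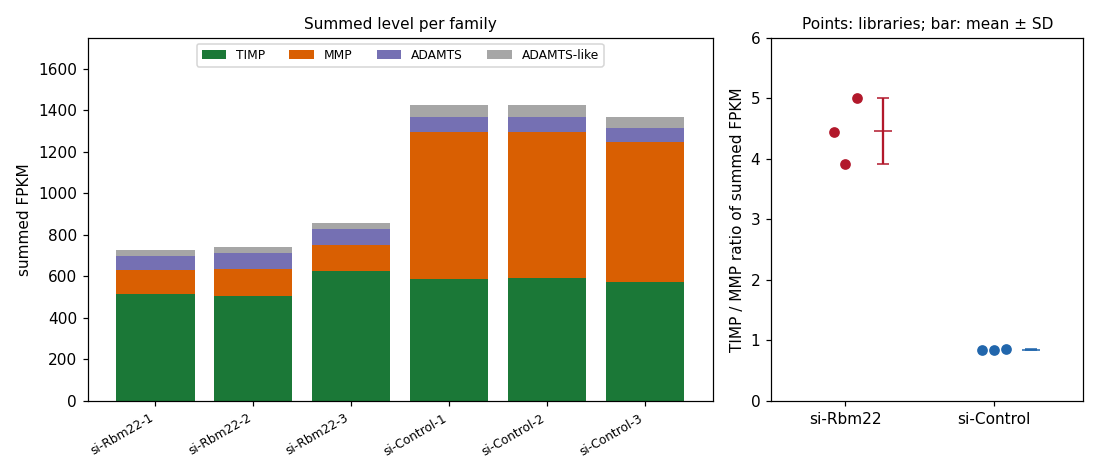
Left, FPKM of the TIMP, MMP, ADAMTS and ADAMTS-like genes stacked for each library. Right, the ratio of summed TIMP to summed MMP FPKM, with 1 point per library and bars for mean ± SD (n = 3): 4.46 in si-Rbm22 and 0.843 in si-Control.

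The gelatinases, which digest denatured collagen and basement membrane collagen, were both lower in si-Rbm22. Mmp2, the gelatinase of connective tissue cells (chromosome 8, 92827291 to 92853420), had 117.4, 132.8 and 140.9 CPM in si-Rbm22, against 1880, 1874 and 1795 CPM in si-Control. The groups lay 14.2-fold apart with no overlap (log2 fold change -3.83, SE 0.0752, adjusted p = 1.35e-14). Per length, Mmp2 stood at 38.7 ± 3.54 FPKM in si-Rbm22 and 548.8 ± 14 FPKM in si-Control (SD, n = 3 each). It held 31.4% of the Mmp FPKM in si-Rbm22, behind Mmp14, and 79.1% in si-Control, where it was also the first of all 47 genes with 39% of their summed FPKM. In si-Rbm22 that place belonged to Timp2, with 45%. Mmp9, the gelatinase of leukocytes, had 2, 0 and 6 reads in si-Rbm22, against 61, 66 and 53 reads in si-Control. It was lower in si-Rbm22, by a ratio of 0.0433 with a 95% counting interval of 0.0184 to 0.0871 (adjusted p = 8.75e-06), and its log2 fold change of -4.47 became -5.77 without si-Rbm22 replicate 3. The summed markers of neutrophils, which carry MMP9 in their granules, stayed at or below 0.717 CPM in every library, from the 6 of 10 listed markers in the table. Of those, Elane, Mpo and Camp had no read in si-Rbm22 and Ltf and Csf3r none in si-Control. Camp, with 25, 21 and 8 reads in si-Control, went the same way as Mmp9. Csf3r, with 8, 1 and 14 reads in si-Rbm22, went the other way. None of the 6 markers passed the filter on low counts.

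The membrane-type metalloproteases act at the cell surface, and they divided 3 against 3. All 6 passed the test, against 82% of all tested genes. Mmp14 codes for the collagenase that activates the MMP2 precursor at the cell surface together with TIMP2. It had 236.8, 266.2 and 253.2 CPM in si-Rbm22, against 515.4, 503.5 and 474.4 CPM in si-Control, where every library was higher (log2 fold change -0.98, SE 0.0612, adjusted p = 2.38e-09). Mmp14 made up 34.3% of the Mmp FPKM in si-Rbm22 and 12% in si-Control. The other transmembrane members Mmp15 and Mmp16 went the other way. Mmp15 had 68.9, 63.3 and 51.2 CPM in si-Rbm22, against 6.73, 7.22 and 6.14 CPM in si-Control, a 9.12-fold rise without overlap (log2 fold change 3.19, SE 0.118, adjusted p = 4.59e-11). Mmp16 had 53.1, 55.7 and 66.5 CPM in si-Rbm22, against 15.1, 14.5 and 17.4 CPM in si-Control (log2 fold change 1.90, SE 0.1, adjusted p = 7.54e-10). Both were thus well above every si-Control library, and in si-Rbm22 they held 9.24% and 5.47% of the Mmp FPKM.

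Mmp17, whose product is held in the membrane by a lipid anchor, had 6.36, 4.97 and 5.25 CPM in si-Rbm22, against 0.938, 1.24 and 1.21 CPM in si-Control. It rose by 2.29 on the log2 scale (SE 0.232, adjusted p = 4.83e-07) at a low level. Mmp24, a further transmembrane enzyme, had 0.164, 0.5 and 0.186 CPM in si-Rbm22, against 2.7, 1.98 and 4.52 CPM in si-Control, lower in each si-Rbm22 library (log2 fold change -3.43, SE 0.471, adjusted p = 1.20e-05, and -4.11 without si-Rbm22 replicate 2). The exons of Mmp24 overlap those of BC029722 on the opposite strand over 13.6% of their length, and BC029722 was also lower in si-Rbm22 (27.4 ± 2.39 CPM, against 73.9 ± 2.32 CPM in si-Control). Whether the counting used the strand is not given in the sources used here, so reads from the overlap cannot be assigned, and the same holds for every overlap named below. Mmp25, the second lipid-anchored enzyme, had 11, 6 and 13 reads in si-Rbm22, against 26, 24 and 25 reads in si-Control. Its fall (log2 fold change -1.35, SE 0.448, adjusted p = 0.0125) no longer passed without si-Rbm22 replicate 2, where the adjusted p was 0.053.

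The collagenase, stromelysin and elastase genes of chromosome 9 form a single cluster, and it was read almost only in si-Rbm22. In GRCm38, 8 of the 47 genes lie between 7272514 and 7699585 on chromosome 9, a span of 427.1 kb, in the order Mmp13, Mmp12, Mmp1b, Mmp3, Mmp10, Mmp8, Mmp27 and Mmp7. Together they had 572, 897 and 737 reads in si-Rbm22, against 17, 5 and 19 reads in si-Control. The start regions of 5 of these genes, chosen after their values were seen, are printed to show what the letters upstream of them share. They are the 250 bases before a RefSeq start of GRCm38.p6, plus strand, with the AP-1 motif in capitals (TGAGTCA, or, where it lies on the other strand, its reverse complement TGACTCA). AP-1, the pair of FOS and JUN factors, is a textbook activator of collagenase and stromelysin genes.
Mmp13: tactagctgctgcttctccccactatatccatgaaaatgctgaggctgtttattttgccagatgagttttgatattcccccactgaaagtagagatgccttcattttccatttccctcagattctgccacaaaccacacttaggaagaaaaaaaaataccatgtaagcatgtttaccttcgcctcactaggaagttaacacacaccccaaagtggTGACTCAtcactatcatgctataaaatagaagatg
Mmp12: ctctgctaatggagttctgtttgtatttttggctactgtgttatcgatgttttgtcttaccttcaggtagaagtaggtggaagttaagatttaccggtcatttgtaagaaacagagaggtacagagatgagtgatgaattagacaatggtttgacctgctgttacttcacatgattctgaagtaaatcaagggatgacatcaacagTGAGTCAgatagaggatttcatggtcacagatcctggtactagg
Mmp3: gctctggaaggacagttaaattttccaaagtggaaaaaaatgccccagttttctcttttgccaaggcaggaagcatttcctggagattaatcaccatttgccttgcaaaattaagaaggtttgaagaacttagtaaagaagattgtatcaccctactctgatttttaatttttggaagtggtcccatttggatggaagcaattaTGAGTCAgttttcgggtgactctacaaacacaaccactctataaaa
Mmp10: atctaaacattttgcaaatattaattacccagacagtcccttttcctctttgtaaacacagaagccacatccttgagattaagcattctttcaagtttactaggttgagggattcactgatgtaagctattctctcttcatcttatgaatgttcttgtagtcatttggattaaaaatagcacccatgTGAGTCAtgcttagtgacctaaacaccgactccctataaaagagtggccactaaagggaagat
Mmp8: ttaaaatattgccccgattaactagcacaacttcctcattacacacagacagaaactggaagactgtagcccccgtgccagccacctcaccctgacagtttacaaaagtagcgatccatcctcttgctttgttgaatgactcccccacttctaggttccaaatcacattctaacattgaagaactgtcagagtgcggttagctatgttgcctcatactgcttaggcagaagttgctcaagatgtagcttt

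The windows are chr9:7272264-7272513 for Mmp13, chr9:7347124-7347373 for Mmp12, chr9:7445572-7445821 for Mmp3, chr9:7502092-7502341 for Mmp10 and chr9:7558179-7558428 for Mmp8. The motif begins 35 bases before the start in Mmp13, 44 in Mmp12, 46 in Mmp3 and 63 in Mmp10, and it is not in the Mmp8 window. For Mmp12 the printed window was picked because it holds the match. It belongs to the downstream of its 2 RefSeq starts, 2993 bases from the GENCODE start, and the upstream window holds no match. Mmp7 likewise has a further window without a match. RefSeq windows were found for 32 of the 47 genes, and the motif on either strand was in those of 6 genes, all in this cluster (Mmp13, Mmp12, Mmp1b, Mmp3, Mmp10 and Mmp7). Of all 32851 windows of this length in the table, 4.46% hold it. The letters did not sort the genes by their reads: Mmp8 and Mmp27, without a match, were higher in si-Rbm22, while Mmp7 and Mmp1b, with one, had at most 2 reads in any library. A match describes the letters and shows no binding.

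Mmp12, the macrophage elastase gene, had 167, 280 and 346 reads in si-Rbm22 (4.56, 7.78 and 9.22 CPM) and no read in any si-Control library. Set against a floor of 3 reads over the si-Control group, Mmp12 in si-Rbm22 was higher by at least 257-fold. Mmp3, which codes for stromelysin 1, a protease of broad range that also activates other metalloproteases, had 235, 381 and 250 reads in si-Rbm22, against 1, 0 and 6 reads in si-Control. The ratio of its levels was 120.4 (95% counting interval 58.2 to 300.4, adjusted p = 7.37e-08). Its log2 fold change was 6.84, and became 6.25 without si-Control replicate 2 and 8.82 without si-Control replicate 3. Mmp10, coding for stromelysin 2, had 54, 53 and 30 reads in si-Rbm22, against 2, 1 and 2 reads in si-Control, a ratio of 26.7 (interval 11.2 to 83.5, adjusted p = 4.49e-06). Mmp3 and Mmp10 share sequence: 8.37% of the 50-base exon words of Mmp10 occur in Mmp3, and 8.39% of those of Mmp3 occur in Mmp10 or Gm15244, so some of their reads may have been split or dropped.

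Mmp8, the collagenase gene known best from neutrophils, had 1.83, 3.69 and 1.68 CPM in si-Rbm22, against 0.359, 0.11 and 0.23 CPM in si-Control (log2 fold change 3.34, SE 0.484, adjusted p = 1.81e-05). Its ratio of 10.2 had a counting interval of 6.78 to 16.1, and the groups did not overlap. Mmp27 had 43, 42 and 41 reads in si-Rbm22, against 0, 0 and 2 reads in si-Control, a ratio of 61.3 (interval 16.6 to 511.9, adjusted p = 4.67e-06). All of its si-Control reads came from replicate 3, without which its log2 fold change of 5.70 became 8.38. Mmp13, coding for the main interstitial collagenase of the mouse, was barely read. It had 6 reads in each si-Rbm22 library and none in si-Control, at least 5.84-fold higher against the floor. It fell under the filter on low counts, and without that filter it passed (adjusted p = 0.00605). Mmp1b, a mouse relative of the human interstitial collagenase gene, had 0, 2 and 1 reads in si-Rbm22 and none in si-Control, and Mmp7, the matrilysin gene, had none in si-Rbm22 and 1, 0 and 1 reads in si-Control. For these last genes a difference was not detectable at this depth. The macrophage markers were higher in the same libraries as Mmp12, as were the cardiomyocyte, endothelial and mesothelial markers. The part of any of these cells in these results was not tested.

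**Figure D3:**
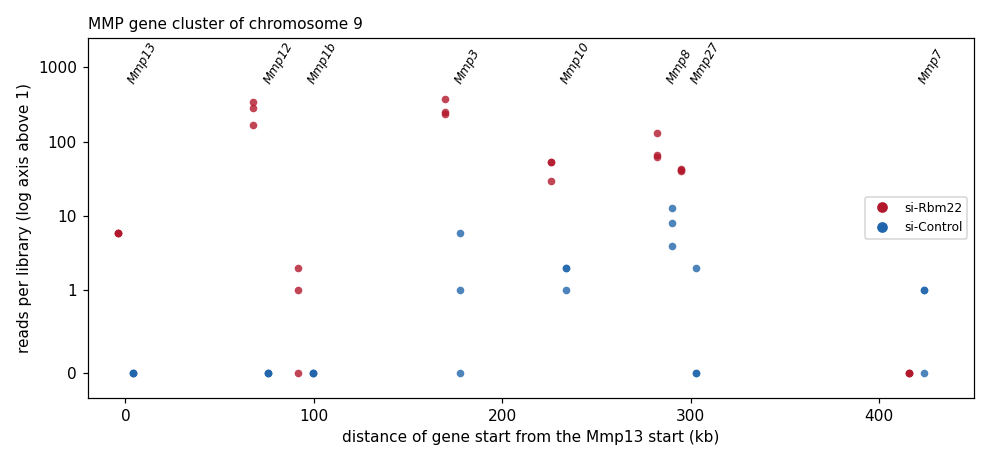
Reads per library (log axis above 1) of the 8 MMP genes in the chromosome 9 cluster, placed by the distance of the gene start from that of Mmp13 in kb, with the si-Rbm22 points shifted slightly to the left of the si-Control points. Mmp12 and Mmp3 reach 346 and 381 reads in si-Rbm22, while no gene of the cluster exceeds 13 reads in si-Control.

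Among the remaining metalloproteases, Mmp11, Mmp19 and Mmp28 were lower in si-Rbm22 and Mmp23 was higher. Mmp11, the stromelysin 3 gene, whose product is activated by furin inside the cell, had 14.9, 16 and 14.1 CPM in si-Rbm22, against 83.9, 87.5 and 83.1 CPM in si-Control. It was several-fold lower with tight replicates (log2 fold change -2.50, SE 0.0711, adjusted p = 5.28e-13), and 5.58% of its exons overlap Chchd10 on the opposite strand, which went the other way (191.3 ± 26.8 CPM in si-Rbm22, against 1.02 ± 0.285 CPM in si-Control). Mmp28, the epilysin gene, had 1.94, 2.56 and 2.32 CPM in si-Rbm22, against 45.1, 42.3 and 40.5 CPM in si-Control, 18.8-fold lower (log2 fold change -4.23, SE 0.114, adjusted p = 2.83e-13), and 12% of its exons lie opposite 1700020L24Rik, which was also lower (0.037 ± 0.0642 CPM in si-Rbm22, against 1.46 ± 0.381 CPM in si-Control). Mmp19 had 4.67, 5.81 and 7.43 CPM in si-Rbm22, against 42.4, 41.5 and 44.7 CPM in si-Control (log2 fold change -2.84, SE 0.132, adjusted p = 4.87e-10). The Mmp19 value is uncertain, since 22.3% of its exon length overlaps Tmem198b on the opposite strand, which was lower too (11.3 ± 0.997 CPM in si-Rbm22, against 44.3 ± 1.87 CPM in si-Control). Mmp23, whose product is anchored in the membrane until it is cut free, had 17.4, 18.8 and 19.1 CPM in si-Rbm22, against 7.15, 7.36 and 5.85 CPM in si-Control (log2 fold change 1.44, SE 0.12, adjusted p = 5.60e-08). In all, 9 of the 17 tested Mmp genes were higher and 8 lower in si-Rbm22, against 43.1% and 38.9% of all tested genes. The higher ones were mostly rare transcripts, and the lower ones included the most abundant.

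The 3 testable inhibitors changed by a median size of 0.47 on the log2 scale, against 3.34 for the Mmp and 2.56 for the Adamts genes. Of these inhibitors, 1 was higher and 2 lower in si-Rbm22, so that 100% passed, against 82% of all tested genes. Timp1, an inhibitor gene that is induced by growth factors and inflammation (chromosome X, 20870166 to 20874735), had 57.3, 62.4 and 81.8 CPM in si-Rbm22, against 169.9, 166.2 and 166.9 CPM in si-Control. It was lower in every si-Rbm22 library (log2 fold change -1.32, SE 0.113, adjusted p = 1.67e-06). Timp2, which both inhibits MMP2 and helps MMP14 to activate it (chromosome 11, 118301069 to 118355740), had 1305, 1210 and 1571 CPM in si-Rbm22, against 1007, 991.2 and 942.4 CPM in si-Control. It rose by 0.47 on the log2 scale (SE 0.0845, adjusted p = 2.06e-04) without overlap. Timp3, whose product binds to the matrix and also blocks ADAMTS4, ADAMTS5 and ADAM17 (chromosome 10, 86300372 to 86349506), had 925.1, 1020 and 1069 CPM in si-Rbm22, against 1130, 1223 and 1174 CPM in si-Control. Its fall was small (log2 fold change -0.23, SE 0.064, adjusted p = 0.00474), and 21.3% of its exon length lies opposite Syn3, which was at 0.345 ± 0.0859 CPM in si-Rbm22 and 49.8 ± 14.4 CPM in si-Control. Timp4, the inhibitor gene known for its expression in heart muscle (chromosome 6, 115241892 to 115252205), had no read in si-Rbm22 and 0, 1 and 1 reads in si-Control, so that no difference was detectable.

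Per length, the order of the inhibitors was Timp2, Timp3 and Timp1 in si-Rbm22, at 349.6 ± 47.9, 123.4 ± 9 and 75.6 ± 14.6 FPKM. In si-Control the order was Timp2, Timp1 and Timp3, at 251.6 ± 8.66, 188.8 ± 2.2 and 144.3 ± 5.73 FPKM (SD, n = 3 each). Neighbours in both orders lay further apart than their SDs, which do not cover the choice of gene length. Timp3 was divided by 8144 exon bases, while its longest coding transcript has 4722. With the longest coding transcript as length, Timp3 would lie above Timp1 in si-Control as well, and the order would be the same in both groups. The highest si-Rbm22 values of Timp1, Timp2 and Timp3 all came from replicate 3, the library with the lowest summed cardiomyocyte markers (25460 CPM, against 37801 and 39610 CPM in replicates 1 and 2 of the same group). Whether these are linked was not tested.

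**Figure D4:**
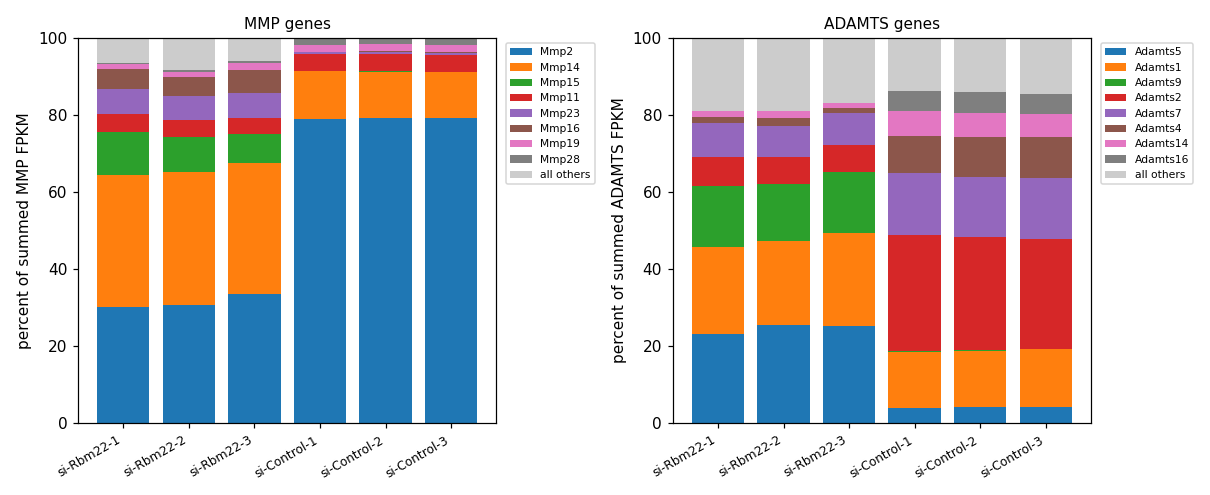
Percent of the summed MMP FPKM (left) and ADAMTS FPKM (right) held by 8 named genes and all others, stacked for each library. Mmp2 takes 31.4% in si-Rbm22 and 79.1% in si-Control on average, and Adamts5 takes 24.6% in si-Rbm22 and 4.05% in si-Control.

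The ADAMTS proteases that cut versican and aggrecan, large proteoglycans of the matrix, were mostly higher in si-Rbm22: 6 of 7 rose and 1 fell. Of all tested genes, 43.1% were higher and 38.9% lower. Adamts5, a leading aggrecan-cleaving enzyme gene in cartilage, had 177.5, 217.3 and 208.4 CPM in si-Rbm22, against 30.8, 33.4 and 31.9 CPM in si-Control, 6.28-fold higher (log2 fold change 2.65, SE 0.079, adjusted p = 1.16e-12). Adamts9 codes for a conserved versican-cleaving enzyme (chromosome 6, 92772699 to 92943492). It had 171.3, 175.6 and 183.8 CPM in si-Rbm22, against 2.57, 2.78 and 1.9 CPM in si-Control, 72.9-fold higher (log2 fold change 6.19, SE 0.101, adjusted p = 2.30e-15). Those levels made Adamts5, Adamts1 and Adamts9 the leading Adamts genes per length in si-Rbm22, at 24.6%, 22.8% and 15.5% of the Adamts FPKM. Their order and shares rest on the gene length used. Adamts9 was divided by 15048 exon bases, while its longest coding transcript has 8016, and with the longest coding transcripts as lengths it would come first. In si-Control, Adamts2 led with 29.3%, followed by Adamts7 with 15.9% and Adamts1 with 14.7%, and Adamts5 and Adamts9 held 4.05% and 0.219%.

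Adamts1, which lies close to Adamts5 on chromosome 16, had 86.4, 91.1 and 97 CPM in si-Rbm22, against 58, 57.2 and 55.8 CPM in si-Control, a smaller rise than that of its neighbour (log2 fold change 0.68, SE 0.0613, adjusted p = 1.27e-07). Adamts15 and Adamts8, a pair on opposite strands of chromosome 9 (30899155 to 30922452 and 30942562 to 30963838), were both higher. Adamts15 had 18.6, 23.1 and 13.2 CPM in si-Rbm22, against 0.276, 0.248 and 0.0288 CPM in si-Control, a ratio of 97.7 (95% counting interval 63.1 to 160.3, adjusted p = 2.53e-08). Adamts8 had 8.08, 10.4 and 7.4 CPM in si-Rbm22, against 0.0828, 0.138 and 0.115 CPM in si-Control, a ratio of 77.1 (interval 43.9 to 149.7, adjusted p = 1.86e-10). Adamts20 had 3.22, 3.25 and 1.92 CPM in si-Rbm22, against 0, 0 and 0.0288 CPM in si-Control, a ratio of 298.8 (interval 53.2 to 11842, adjusted p = 8.26e-08). That interval is wide because 1 read in si-Control replicate 3 sets it, and without that library the log2 fold change of 7.77 became 9.67. Adamts4, the aggrecanase gene induced by inflammatory signals, was the exception. It had 5.27, 7.72 and 5.25 CPM in si-Rbm22, against 34.6, 36.8 and 36.3 CPM in si-Control (log2 fold change -2.56, SE 0.132, adjusted p = 7.62e-10). Parts of the exons of Adamts8 (10.6%), Adamts9 (9.18%) and Adamts4 (3.56%) overlap other genes on the opposite strand.

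The enzymes that remove the N-terminal propeptide of fibrillar procollagens divided 2 lower and 1 higher. Thus 100% of them passed the test, against 82% of all tested genes. Adamts2, the main one in skin, had 50, 51.7 and 50.1 CPM in si-Rbm22, against 209.6, 204.5 and 187.6 CPM in si-Control (log2 fold change -1.99, SE 0.0609, adjusted p = 1.16e-12). Adamts14, its close relative, had 6.06, 7.58 and 5.09 CPM in si-Rbm22, against 24.8, 23.8 and 22.1 CPM in si-Control (log2 fold change -1.92, SE 0.135, adjusted p = 8.75e-09). Both were lower in every si-Rbm22 library by about the same log2 step. Adamts3, whose product also takes part in activating the lymphatic growth factor VEGFC, had 6.85, 7.14 and 4.66 CPM in si-Rbm22, against 0.193, 0.386 and 0.547 CPM in si-Control, 16.5-fold higher (log2 fold change 4.04, SE 0.331, adjusted p = 4.67e-08). The endothelial markers were higher in the same libraries as Adamts3, as were the cardiomyocyte, mesothelial and macrophage markers. The collagen genes Col1a1, Col1a2 and Col3a1 were higher in si-Control, as were Adamts2 and Adamts14. The other fibroblast markers were divided. Postn (log2 fold change -2.67) and Pdgfra (-0.20) were also lower in si-Rbm22, Dcn, Thy1 and Tcf21 were higher, and Lum and Dpt did not pass. The part of these cells in the result was not tested.

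The remaining ADAMTS proteases come in related pairs, and the pairs were uneven. Of Adamts7 and Adamts12, whose products cut cartilage oligomeric matrix protein, the first was lower and the second slightly higher. Adamts7 had 39.7, 40.1 and 39.3 CPM in si-Rbm22, against 76.2, 73.7 and 69.6 CPM in si-Control (log2 fold change -0.88, SE 0.0618, adjusted p = 8.48e-09). Adamts12 had 28.6, 32.7 and 30.5 CPM in si-Rbm22, against 25.2, 26.3 and 25.5 CPM in si-Control (log2 fold change 0.25, SE 0.078, adjusted p = 0.00815). Of the pair linked to fibrillin microfibrils, Adamts6 and Adamts10, both were lower. Adamts6 had 5.08, 6.45 and 5.17 CPM in si-Rbm22, against 16.2, 18.3 and 17.5 CPM in si-Control (log2 fold change -1.64, SE 0.129, adjusted p = 3.01e-08). Adamts10 had 35.1, 32.6 and 40 CPM in si-Rbm22, against 46.1, 42.5 and 44 CPM in si-Control (log2 fold change -0.30, SE 0.0809, adjusted p = 0.00345), with only a narrow gap between the groups.

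Adamts16 and Adamts19 were each read almost only in 1 of the groups. Adamts16 had 0.164, 0.278 and 0.0266 CPM in si-Rbm22, against 26.9, 28.9 and 25.3 CPM in si-Control, a ratio of 0.0057 (95% counting interval 0.00332 to 0.00914, adjusted p = 9.04e-12). Its log2 fold change of -7.42 became -8.12 without si-Rbm22 replicate 2. Its relative Adamts18 was hardly read, with 1, 1 and 0 reads in si-Rbm22 and 1, 0 and 0 reads in si-Control. Adamts19, known for a role in heart valves, had 9.2, 12.9 and 7.38 CPM in si-Rbm22 and no read in si-Control, at least 349.5-fold higher against the floor of 3 reads. Adamts17, its relative, had 2.46, 1.36 and 0.906 CPM in si-Rbm22, against 1.43, 3 and 1.38 CPM in si-Control. Those values overlapped and did not pass (log2 fold change -0.30, SE 0.418, adjusted p = 0.512), and leaving out si-Control replicate 2 turned the sign (0.14). It was the only tested gene of the 47 that did not pass.

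Of the ADAMTS-like genes, 3 were lower and 2 higher in si-Rbm22, so that 100% passed, against 82% of all tested genes. Adamtsl4, whose product binds fibrillin-1 and is needed for the lens zonule, had 11.7, 12.4 and 11.8 CPM in si-Rbm22, against 130.5, 132.9 and 119.6 CPM in si-Control (log2 fold change -3.42, SE 0.0702, adjusted p = 1.99e-14). Adamtsl1 had 9.04, 11.7 and 8.6 CPM in si-Rbm22, against 109.5, 101.6 and 97.3 CPM in si-Control (log2 fold change -3.40, SE 0.104, adjusted p = 9.20e-12). These falls were nearly equal, and the replicates of each group lay close together. Adamtsl3 had 34.8, 35.8 and 38.4 CPM in si-Rbm22, against 64.6, 63.4 and 60.5 CPM in si-Control (log2 fold change -0.79, SE 0.0657, adjusted p = 5.52e-08). Adamtsl2, whose human counterpart is mutated in geleophysic dysplasia, a disorder that also affects heart valves, had 18.9, 19.8 and 16.4 CPM in si-Rbm22, against 0.911, 1.07 and 0.461 CPM in si-Control (log2 fold change 4.48, SE 0.212, adjusted p = 1.42e-10). Adamtsl5 had 78.3, 84.2 and 82.9 CPM in si-Rbm22, against 44.4, 45.6 and 42.9 CPM in si-Control (log2 fold change 0.88, SE 0.0604, adjusted p = 6.41e-09). Per length, Adamtsl5 was first of the family in si-Rbm22 with 62% of its FPKM, and Adamtsl4 was first in si-Control with 54.2%.

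**Figure D5:**
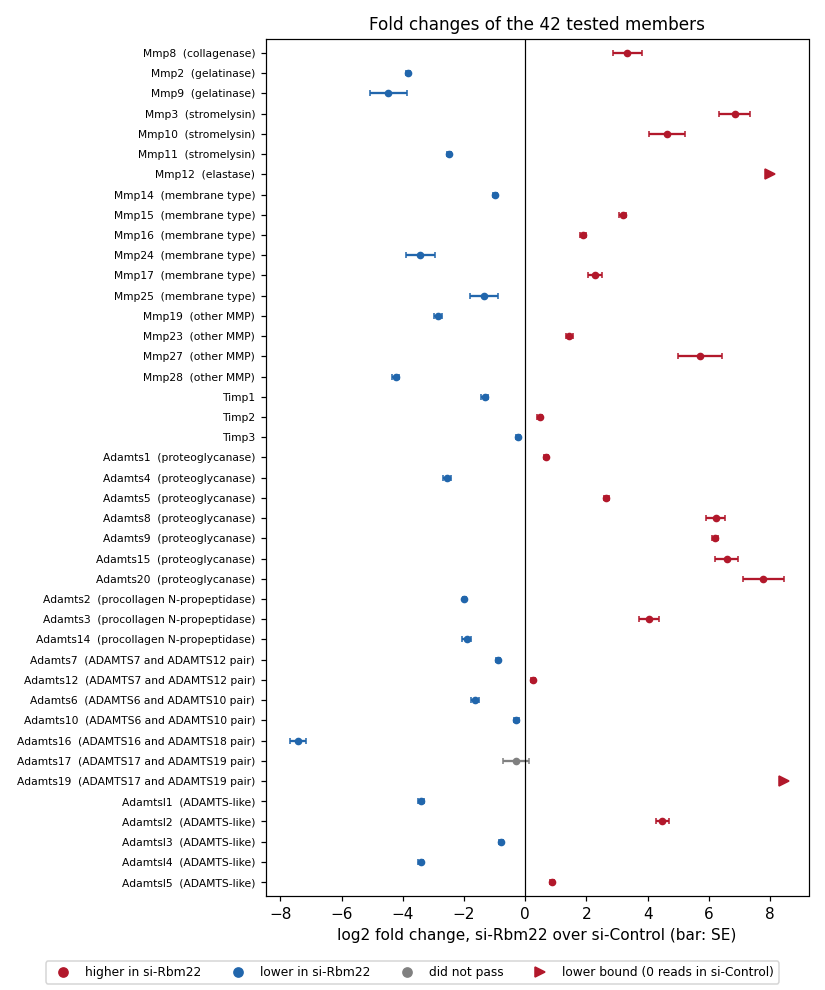
Log2 fold change of si-Rbm22 over si-Control for the 42 tested genes, ordered by role, with bars for the SE and arrowheads for lower bounds where si-Control had no read. Points to the right are higher in si-Rbm22 (21 genes) and points to the left lower (20 genes), and the grey point is Adamts17, which did not pass.

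The enzymes that switch these proteases on were also mixed. Of 6 tested proprotein convertases, which cut the propeptides of membrane-type metalloproteases and ADAMTS proteases, 3 were higher and 3 lower. Pcsk5 had 101.3 ± 7.48 CPM in si-Rbm22 and no read in si-Control, at least 3623-fold higher, and Pcsk6 had 64.8 ± 8.83 CPM in si-Rbm22, against 19.5 ± 1.59 CPM in si-Control (log2 fold change 1.73, SE 0.1). Mbtps1, a convertase of the Golgi, was lower, at 116.6 ± 4.01 CPM in si-Rbm22 and 216.8 ± 6.36 CPM in si-Control (log2 fold change -0.89, SE 0.0554). Among 9 tested genes of the plasminogen system, whose product plasmin can activate metalloproteases, 4 were higher, 4 lower and 1 did not pass. The urokinase receptor gene Plaur had 70 ± 2.51 CPM in si-Rbm22, against 21.5 ± 0.958 CPM in si-Control (log2 fold change 1.71, SE 0.0683). The tissue plasminogen activator gene Plat had 56.8 ± 3.27 CPM in si-Rbm22, against 139.8 ± 4.96 CPM in si-Control, and the plasminogen receptor gene S100a10 had 156.1 ± 9.42 CPM in si-Rbm22, against 451.6 ± 21.6 CPM in si-Control (log2 fold changes -1.30, SE 0.0614, and -1.53, SE 0.0633). The median log2 fold change was 0.28 for the convertases and 0.09 for the plasminogen genes, near the 0.05 of all tested genes. The edgeR test was passed by 100% of the tested convertases and 88.9% of the tested plasminogen genes, against 82% of all tested genes.

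Of 11 tested inhibitors and cofactors of metalloproteases outside the Timp family, 6 were higher, 4 lower and 1 did not pass, with a median log2 fold change of 1.53. That is 90.9% past the test, against 82% of all tested genes. Spock2, coding for a matrix proteoglycan of the testican family, had 25.1 ± 2.08 CPM in si-Rbm22, against 153.2 ± 1.09 CPM in si-Control (log2 fold change -2.61, SE 0.0682). Lrp1, coding for a receptor that clears metalloproteases and their inhibitors from the cell surface, had 254.5 ± 17.5 CPM in si-Rbm22, against 1334 ± 58 CPM in si-Control (log2 fold change -2.39, SE 0.0665). Tfpi2, coding for an inhibitor of plasmin and other serine proteases, had 7.3 ± 1.19 CPM in si-Rbm22 and no read in si-Control, at least 261.2-fold higher. Reck, a membrane-anchored inhibitor gene chosen after its values were seen, had 49.3 ± 9.66 CPM in si-Rbm22, against 17.1 ± 0.729 CPM in si-Control (log2 fold change 1.53, SE 0.125).

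The substrates and partners of the ADAMTS proteins included some of the more abundant transcripts. Of 6 tested proteoglycans and other ADAMTS substrates, 3 were higher and 3 lower. Vcan, the versican gene, had 101.4 ± 5.85 CPM in si-Rbm22, against 244.4 ± 5.18 CPM in si-Control (log2 fold change -1.27, SE 0.0589), in the libraries where 6 of the 7 versican- and aggrecan-cleaving enzyme genes were higher. Thbs1, the thrombospondin 1 gene, had 2151 ± 254.9 CPM in si-Rbm22, against 6982 ± 265.5 CPM in si-Control (log2 fold change -1.70, SE 0.079). Acan, the aggrecan gene, had 936 reads in si-Rbm22 and 1 read in si-Control over the 3 libraries of each, a ratio of 911.1 (95% counting interval 163.1 to 36025). Of 15 microfibril and elastic fibre genes, 6 were higher and 9 lower, with a median log2 fold change of -0.88. Ltbp1, which codes for a carrier of latent TGF-beta, had 105.4 ± 6.97 CPM in si-Rbm22, against 470.7 ± 16.6 CPM in si-Control (log2 fold change -2.16, SE 0.064). Efemp1, coding for a fibulin, had 288.3 ± 30.7 CPM in si-Rbm22, against 0.937 ± 0.306 CPM in si-Control (log2 fold change 8.27, SE 0.155), and Mfap5, coding for a microfibril glycoprotein, had 5.98 ± 0.65 CPM in si-Rbm22, against 50 ± 2.59 CPM in si-Control (log2 fold change -3.06, SE 0.0963). Of 4 tested astacin proteases and procollagen enhancers, 1 was higher and 3 lower. Bmp1, which removes the C-terminal propeptide of procollagens, had 116.5 ± 4.26 CPM in si-Rbm22, against 300.2 ± 18.8 CPM in si-Control, and its enhancer Pcolce had 273.2 ± 25.8 CPM in si-Rbm22, against 779.2 ± 17.3 CPM in si-Control (log2 fold changes -1.37, SE 0.062, and -1.51, SE 0.0689). Tll1, a relative of Bmp1, had 19.3 ± 2.54 CPM in si-Rbm22, against 0.335 ± 0.049 CPM in si-Control (log2 fold change 5.83, SE 0.199). The lower procollagen-processing genes Adamts2, Adamts14, Bmp1 and Pcolce thus stood together with the higher Adamts3 and Tll1 in the same libraries. In these lists of substrates, microfibril genes and astacin proteases, 100% of tested genes passed the edgeR test, against 82% of all tested genes. The related genes named here were picked by the smallest p of their lists, or, for Reck, after its values were seen. That they all passed the edgeR test therefore adds no support.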

How the data were processed

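Total RNA of 6 cultures was sequenced, and the libraries were prepared with a VAHTS Universal V6 kit, per the labels' protocols. The authors deposited raw read counts per Ensembl gene, not normalized, with totals of 34269042 to 37344860 reads. Build GRCm38 and the tools HISAT2, HTSeq, fastp and DESeq2 come from the submitters' processing notes. Strand setting and annotation release were not given in the sources used here. Of 18951 identifiers, 18868 matched GENCODE M21, which gave symbols, positions and exon lengths.

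Groups and replicate numbers came from the titles. The labels speak of biological replicates without naming separate isolations, so the p-values rest on the spread between these samples. Chi-square per degree of freedom between replicates was 10.5 to 30.9 in si-Rbm22 and 4.52 to 7.05 in si-Control, so no library was a copy of another.

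Counts were tested with edgeR 4.0.16 in R 4.3.3 (TMM, filterByExpr, robust quasi-likelihood fit, group only, adjusted p under 0.05 over 14621 genes), after a check on simulated data. SE was computed as the size of the log2 fold change over the root of the F statistic, and with few reads it can be smaller than counting error. Floors of 3 counts over a group (0.0272 CPM in si-Rbm22, 0.028 CPM in si-Control) and 95% exact counting intervals cover counting error only. Exons of a gene were compared with those of other genes for overlap and shared 50-base words. Alternatives were RLE factors, other filters, DESeq2 1.42.0, limma-voom (limma 3.58.1), a replicate block, leaving out mitochondrial transcripts or single libraries, a threshold of 0.01 and another gene length.

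The genes and lists were chosen with earlier results of these data known. Values in every library are given for all Timp genes and for other genes that averaged 1 CPM or more. Rarer genes are given by their reads. For each list of related genes, those with the 3 smallest p are named.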

Additional observations from a re-analysis of the deposited data

How the results depend on the processing

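Of 532 fitted values, the log2 fold changes of the 42 tested genes under 13 alternatives, 530 kept their direction and their side of the threshold. The exceptions were Adamts17, which did not pass and whose value lay between -0.79 and 0.14 when libraries were left out in turn (0.14 without si-Control replicate 2), and Mmp25 without si-Rbm22 replicate 2 (-1.11, adjusted p = 0.053). With a filter of 10 CPM in 3 libraries, 28 of the genes were tested, and 11 were higher and 17 lower, in place of 21 and 20. At a threshold of 0.01, 21 were higher and 19 lower. The ratio of summed Timp to summed Mmp FPKM in si-Rbm22 was 3.74, against 4.46, when the longest coding transcript set the length, and 4.18 to 4.73 when libraries were left out. Without mitochondrial transcripts, the shares of reads were 0.0597% (Mmp), 0.0725% (Adamts) and 0.0166% (Adamtsl) in si-Rbm22 and 0.24% (Timp) in si-Control. The labels give both groups the replicate numbers 1 to 3, but deviations of same-numbered libraries correlated at -0.0164, 0.00689 and 0.00841. No pairing by number was thus seen, and whether same-numbered cultures shared an isolation is not given in the labels. With the replicate block, 21 genes were higher and 20 lower, and 11945 of all genes passed, against 11983. Few reads limit Mmp13, Mmp1b, Mmp7, Timp4 and Adamts18, which were tested only without a filter on low counts: Mmp13 then passed (adjusted p = 0.00605), making 22 higher, and the other 4 did not (adjusted p 0.204 to 0.731). No alternative leaves out the si-Control libraries, whose markers go against their label.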

Other observations

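Proteases of other families that work around the cell were described in the same way. The ADAM family includes membrane proteases that shed surface proteins, though not every member listed need be one. Of 11 tested ADAM genes, 6 were higher, 4 lower and 1 did not pass the edgeR test, with a median log2 fold change of 1.12. The share past the test was 90.9%, against 82% of all tested genes. Adam12 had 10.7 ± 0.544 CPM in si-Rbm22, against 49.6 ± 1.68 CPM in si-Control (log2 fold change -2.21, SE 0.0786), and Adam15 had 55.5 ± 3.45 CPM in si-Rbm22, against 181.7 ± 7.21 CPM in si-Control (log2 fold change -1.71, SE 0.063). Adam33 had 1804 reads over the 3 si-Rbm22 libraries and 1 read over the 3 si-Control libraries, a ratio of 1756 (95% counting interval 314.8 to 69398).

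Of 13 cysteine cathepsin and cystatin genes, which act in lysosomes and on matrix near the cell, 8 were higher, 3 lower and 2 did not pass. This share of 84.6% past the test was near the 82% of all tested genes. Ctss, a cathepsin gene of macrophages that is also on the macrophage marker list, had 42.4 ± 3.58 CPM in si-Rbm22, with 4677 reads, against 1 read in si-Control, a ratio of 4553 (interval 816.7 to 179860). Ctsc had 1499 reads in si-Rbm22 and 3 in si-Control, a ratio of 486.4 (interval 166.1 to 2361), and Ctsk, the cathepsin K gene of osteoclasts, had 9.61 ± 1.11 CPM in si-Rbm22, against 0.196 ± 0.0327 CPM in si-Control (log2 fold change 5.59, SE 0.254). Of 8 tested pericellular serine protease and heparanase genes, 5 were higher and 3 lower. Here 100% passed, against 82% of all tested genes. Dpp4 had 15491 reads in si-Rbm22 and 2 in si-Control, a ratio of 7540 (interval 2087 to 62263), St14 had 9.18 ± 1.73 CPM in si-Rbm22, against 0.166 ± 0.145 CPM in si-Control, and Prss23 had 307.3 ± 35 CPM in si-Rbm22, against 122.4 ± 3.12 CPM in si-Control (log2 fold change 1.33, SE 0.0765). The summed macrophage and mesothelial markers were higher in the same libraries, as were the cardiomyocyte and endothelial markers. The part of any of these cells in these values was not tested.

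Among the si-Rbm22 libraries, replicate 2 held the highest value of 23 of the 42 tested matrix protease and inhibitor genes (54.8%), against 33.5% of all tested genes.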
